A study of Mus musculus with 8 samples.

Results

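The genes followed here are 36 mitosis genes, chosen by symbol from a list of mitotic cyclins and kinases, checkpoint and kinetochore proteins, kinesin motors, spindle and cytokinesis proteins and mitotic chromosome proteins. All 36 were among the 12260 genes of the deposited table, and all passed the filter on low counts that left 11934 genes for testing. The rule that picks them uses no measured value, but the list was chosen with earlier results of these data known. Their transcripts were well counted: the smallest member count in any library was 1098 reads. The cells were MBL2, a T-cell lymphoma line that Moloney murine leukaemia virus induced in C57BL/6 mice, grown in RPMI-C, plated in 96-well format and sampled 24 h after a single exposure. The 4 groups were talazoparib given together with romidepsin (called the combination), talazoparib alone, romidepsin alone and untreated control, with 2 libraries each. Talazoparib inhibits and traps the DNA repair enzymes PARP1 and PARP2, and romidepsin inhibits class I histone deacetylases. All 4 groups are the same single line, and the sources used here give no dose of either drug. Nothing in the labels tells if 2 libraries of one group are separate cultures. The p-values therefore measure the spread between these particular libraries, and that spread may be technical.

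A cell enters mitosis when Cdk1 bound to cyclin B, helped by Polo-like and Aurora kinases, drives chromosome condensation and spindle assembly. The spindle checkpoint then holds back the anaphase-promoting complex and its activator Cdc20 until every kinetochore is attached, after which separase cuts cohesin and the cell divides. Transcripts of these genes accumulate in G2 and mitosis and are low in G1. In mammalian cells many of their promoters carry a cell cycle genes homology region (CHR), bound by the MuvB core of the DREAM repressor or by MuvB with B-Myb and FoxM1, together with CCAAT boxes bound by NF-Y, and induction of p21 through p53 favours the DREAM form.

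Promoters are shown for genes that passed the test in at least 2 of the 8 comparisons and have an entry in the RefSeq promoter table (GRCm38.p6). The elements named above are marked in them but played no part in picking the genes. Each window runs 5′ to 3′ on the gene's own strand. Capitals mark the CHR letters TTTGAA or TTCGAA and the NF-Y box CCAAT, which reads ATTGG on the other strand. Cdc20 lies on the minus strand and the other genes on the plus strand. For Plk1 and Bub1b a second stretch, past the annotated start, holds the CHR letters.
Cdc20, chr4:118437344-118437473: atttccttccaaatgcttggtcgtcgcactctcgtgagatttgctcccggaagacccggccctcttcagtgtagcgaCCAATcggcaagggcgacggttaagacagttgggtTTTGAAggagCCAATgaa
Ncapg, chr5:45669795-45669920: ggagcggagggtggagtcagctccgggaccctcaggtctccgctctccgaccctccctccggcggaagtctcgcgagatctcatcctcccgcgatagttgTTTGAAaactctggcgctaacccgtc
Plk1, chr7:122159305-122159434: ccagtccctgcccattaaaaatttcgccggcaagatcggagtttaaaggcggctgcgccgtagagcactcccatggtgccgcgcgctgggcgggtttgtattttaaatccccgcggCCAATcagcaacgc
Plk1 past the start, chr7:122159455-122159484: cagcgccgcgTTTGAAttcggggaggagcg
Bub1b, chr2:118598081-118598210: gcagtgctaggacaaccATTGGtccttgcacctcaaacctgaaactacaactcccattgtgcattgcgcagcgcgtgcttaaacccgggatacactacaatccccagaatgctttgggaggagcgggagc
Bub1b past the start, chr2:118598231-118598260: ctgcgtcaagagacgttaaaTTTGAAactt
Counted from the start of the promoter entry, the first CHR base lay at -18 in Cdc20, at -30 in Ncapg, at 31 in Plk1 and at 41 in Bub1b. The annotated spans of Ncapg (from chr5:45669891) and Bub1b (from chr2:118598202) begin before that start. The Ncapg stretch is shown up to -5, and its CHR letters lie inside the gene's annotated span. CCAAT letters lay at -53 and -8 in Cdc20, at -14 in Plk1 and, on the other strand, at -113 in Bub1b. Outside the stretches shown, Ncapg held CCAAT on the other strand at -176 and Bub1b held TTCGAA at -188.

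A promoter window of 300 bases, 250 before and 50 after the start, was found for 31 of the 36 members. Of these 31 windows, 26 (83.9%) held CHR letters on either strand, against 14.4% of the 12087 windows of tested genes, where a gene can have several. Within 50 bases of the start the share was 24 of 31 (77.4%), against 3.83%. CCAAT was present in 25 of 31 (80.6%), against 37.9%, and both CHR near the start and CCAAT in 22 of 31 (71.0%), against 1.76%. The E2F letters TTTCCCGC, TTTGGCGC, TTTCGCGC or TTTGCCGC were present in 3 of 31 (9.68%), against 4.08%: Cdk1, Kif15 and Ncapg. In the member windows, 1 pair of matches of different motifs shared a base. A match describes letters, not a bound site. Among the 9 members with a window that fell in the averaged talazoparib comparison below, 7 (77.8%) had CHR letters near the start, and among the 21 that passed no test there, 16 (76.2%) did.

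**Figure D1:**
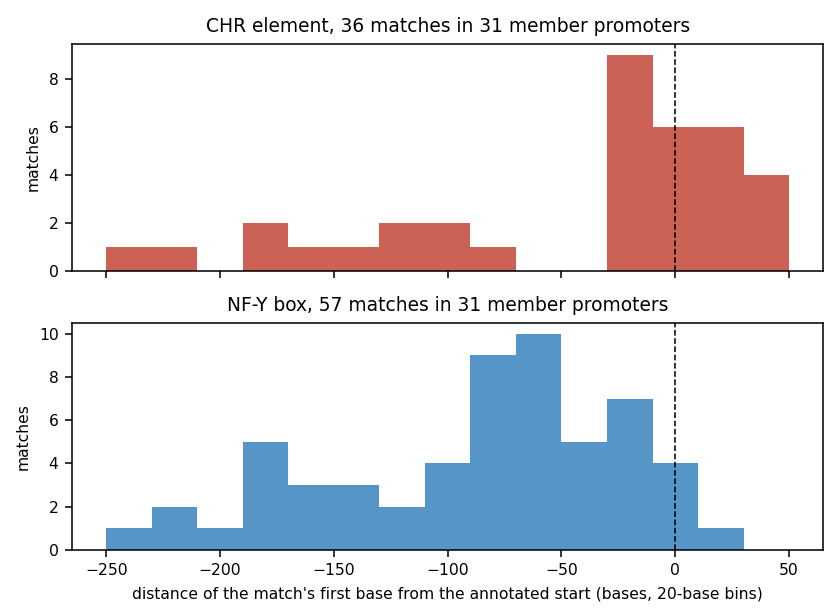
Number of CHR matches (top, 36 in all) and NF-Y box matches (bottom, 57 in all) in 20-base bins by distance from the annotated start, over the 31 member promoters with a window; the dashed line is the start. CHR matches gather within 50 bases of the start and NF-Y boxes mostly before it.

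Library totals ran from 28419156 to 38913292 counts. The ribosomal RNA precursor Rn45s had its highest shares with talazoparib alone (0.520% and 0.394% of counts), above a range of 0.135% to 0.235% elsewhere. Of 17 T cell markers, 15 were in the table, and Cd8a and Cd8b1 are not analysed here. Per length of transcript (FPKM), Thy1, Tcf7, Cd3g and Lat were among the highest of the 15. The summed level of the 15 was 4627 and 4741 CPM (counts scaled to library size with TMM factors) in the combination libraries and 4618 and 4718 CPM with talazoparib. It was 5760 and 5807 CPM with romidepsin and 5792 and 5990 CPM in control. Of the 15, 3 lay lower in all 4 libraries with talazoparib than in all 4 without it, Tcf7 (707 to 825 CPM, against 1624 to 1739 CPM), Thy1 (993 to 1058 CPM, against 1194 to 1247 CPM) and Cd3d (261 to 297 CPM, against 339.9 to 391.5 CPM), 2 lay higher (Cd247 and Cd4) and 10, Lck among them, overlapped. Of 8 myeloid markers, 3 were tested, and they summed to 52.2 and 49.3 CPM with both drugs and 44.3 and 38.0 CPM with talazoparib, against 21.2 and 24.4 CPM with romidepsin and 17.3 and 15.0 CPM in control, each of the 3 higher in all libraries with talazoparib. The defining myeloid markers Csf1r, Adgre1, Mpo and Elane are not analysed here. Of 7 fibroblast markers 4 were tested, and they summed to 195 to 260 CPM with talazoparib in either form and 212 to 247 CPM without it. Within that sum Pdgfrb (77.8 to 130 CPM, against 50.1 to 57.3 CPM) and Pdgfra (20.9 to 29.8 CPM, against 12.4 to 15.1 CPM) were higher with talazoparib and Acta2 (88.9 to 105 CPM, against 142 to 178 CPM) lower, without overlap. The 2 B cell markers tested of 7 summed to 47.8 to 62.2 CPM and 40.3 to 53.5 CPM, and the 2 erythroid markers tested of 5 to 6.37 to 7.58 CPM and 4.74 to 5.75 CPM, with Cd79b and Epor higher in all libraries with talazoparib. The part of these markers and of the Rn45s share in the results below was not tested.

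A subset of the mitosis genes was lower with talazoparib, by modest amounts, 1 was higher, and the other 23, Cdk1 and Ccnb1 among them, did not pass the test. With both talazoparib-treated groups set against both groups without it (the averaged comparison, 4 libraries against 4), 12 of 36 members fell and 1 rose at an adjusted p under 0.05 (edgeR's quasi-likelihood test, Benjamini-Hochberg over all tested genes, used for every adjusted p below). That is 33.3% of members fallen where 13.7% of all tested genes fell, and 2.78% risen where 16.5% of all tested genes rose. The members that fell were Cdc20, Plk1, Cenpf, Ccna2, Mki67, Ncapg, Kif22, Tpx2, Cdc25c, Kif23, Nusap1 and Bub1b, by 14.8% (Bub1b) to 23.9% (Cdc20), and Kif15 rose. The median log2 fold change over the 36 members was -0.18, beside 0.00 over all tested genes. Bulk RNA cannot tell fewer cells in G2 or mitosis from less RNA of these genes per cell. In 14 members all 4 talazoparib-treated libraries lay below all 4 others, and in 1 above (15.8% and 17% of all tested genes).

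The calls of Ccna2, Plk1, Cdc20 and Ncapg in the averaged comparison held under all 16 alternatives (8 other ways of processing, and leaving out each of the 8 libraries), and none of the 13 called members changed sign in any of them. With 1 library left out in turn, the members' median minus that of all genes ran from -0.24 (without talazoparib 1) to -0.13 (without talazoparib 2). It was -0.16 without control 1 and -0.21 without control 2. The number of calls, of members and over all genes, moved with the library left out. In these fits the lone library of a group is assumed to vary like the others. On log2(FPKM + 1) with limma 6 fell and 2 (Kif15 and Ube2c) rose, where 883 of 12260 genes fell and 2671 rose. On that scale the median of all genes moved up by 0.071 and 75.2% of all calls were upward, against 54.8% in the main fit. As measured in log2 CPM against the mean of the control libraries, the median over the 36 members was -0.18 and -0.25 in combination libraries 1 and 2, -0.076 and -0.26 in talazoparib libraries 1 and 2, -0.068 and -0.052 in romidepsin libraries 1 and 2 and within 0.034 of 0 in the control libraries. Every talazoparib-treated library thus lay below every library without the drug in this median, but talazoparib library 1 lay close to the romidepsin libraries.

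**Figure D2:**
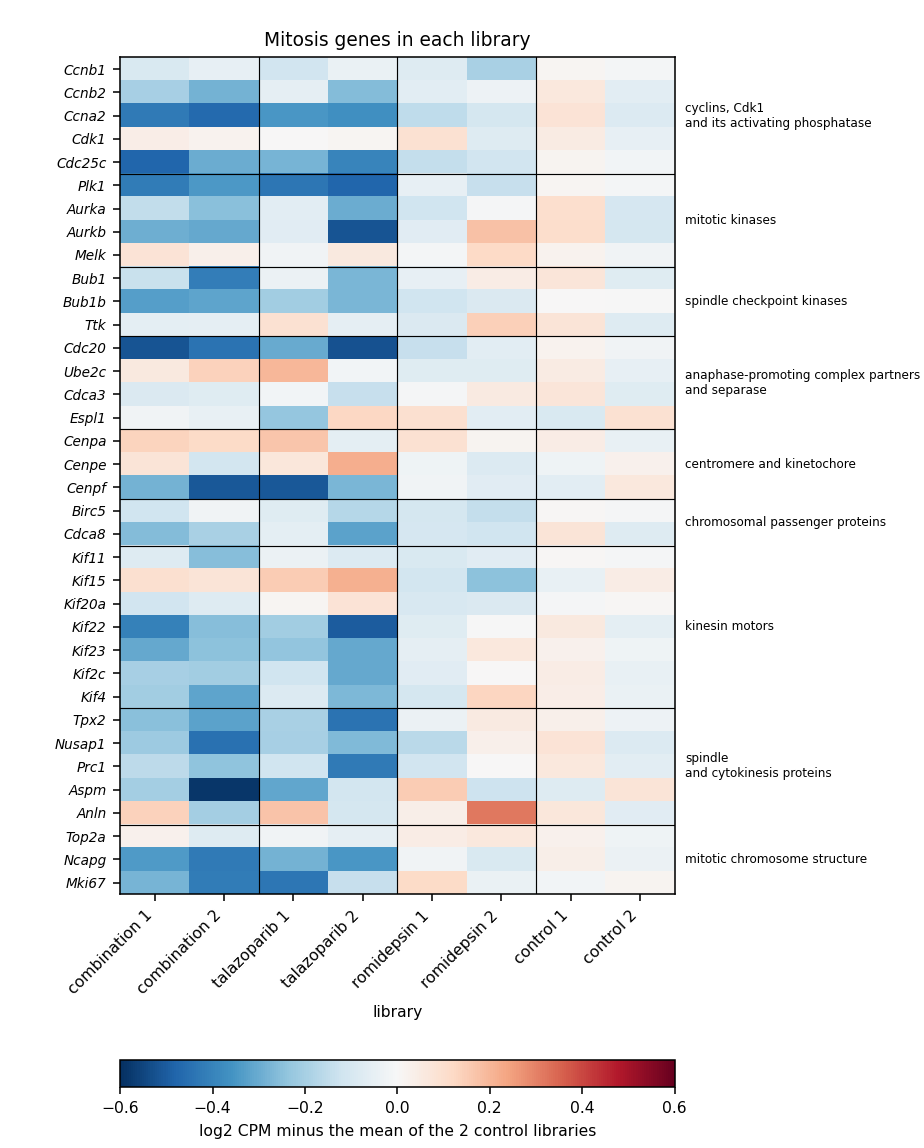
Log2 CPM minus the mean of the 2 control libraries for the 36 mitosis genes (rows, grouped by role) in the 8 libraries (columns); blue is lower and red higher than control. Rows such as Ccna2, Plk1, Cdc20 and Ncapg are blue in all 4 talazoparib-treated libraries, while Cdk1, Top2a and Melk stay near 0.

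**Figure D3:**
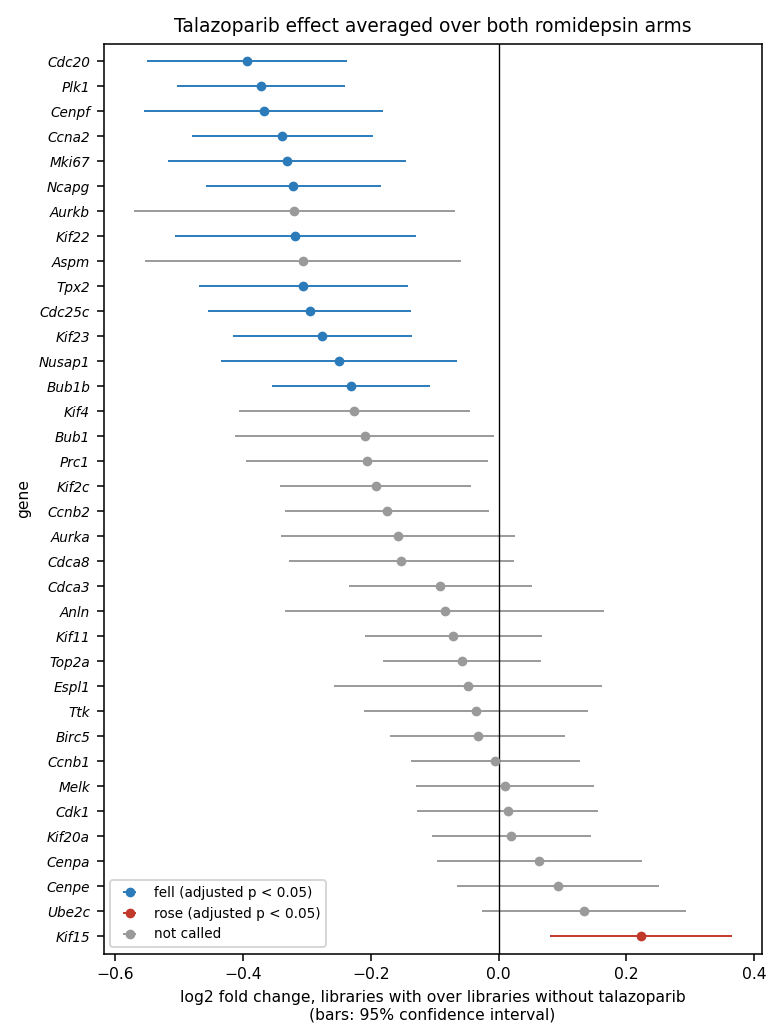
Averaged talazoparib effect for each of the 36 genes: log2 fold change of the 4 libraries with talazoparib over the 4 without it, with 95% confidence intervals, ordered from lowest to highest; colours give the call at an adjusted p under 0.05. The effects run from -0.39 (Cdc20) to 0.22 (Kif15), with 12 called down and 1 called up.

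Among the cyclins and Cdk1, cyclin A2 and Cdc25c fell and the Cdk1-cyclin B1 pair did not pass the test. Ccna2 (cyclin A2, which activates Cdk2 in S phase and Cdk1 in G2; gene ID 12428, GRCm38 chr3:36564865-36573038) had 132 and 128 CPM in the combination libraries, 139.6 and 137 CPM with talazoparib, 159.9 and 165 CPM with romidepsin and 188 and 168 CPM in control. All 4 talazoparib-treated libraries lay below all 4 others, and the control libraries were the highest. Its averaged comparison gave a log2 fold change of -0.34 (SE 0.062, 95% CI -0.48 to -0.20, adjusted p = 0.00602). Cdc25c, a phosphatase that removes inhibitory phosphates from Cdk1, had 34.6 and 39.1 CPM with both drugs, 39.7 and 36.6 CPM with talazoparib alone, against 43.6 and 44.5 CPM with romidepsin alone and 48.7 and 47.6 CPM in control. The groups with and without talazoparib did not overlap, and the averaged comparison gave a log2 fold change of -0.30 (SE 0.069, 95% CI -0.46 to -0.14, adjusted p = 0.0153). That call was lost without control 1 (adjusted p = 0.0642), control 2 (adjusted p = 0.0510) or combination 1 (adjusted p = 0.0514), and on both FPKM scales (adjusted p = 0.0580 and 0.0575). Ccnb1, cyclin B1, had 251 and 258 CPM in the combination libraries, 247 and 260.3 CPM with talazoparib, 253 and 234 CPM with romidepsin and 269.9 and 265 CPM in control. Its groups overlapped, with control highest and romidepsin 2 lowest, and the 95% CI of its averaged log2 fold change was -0.14 to 0.13. Cdk1, the mitotic kinase itself, had 375 and 369.7 CPM with both drugs, 365 and 368 CPM with talazoparib alone, against 388 and 346 CPM with romidepsin alone and 377 and 352 CPM in control. Its libraries overlapped in every comparison with control, and the 95% CI of the averaged log2 fold change was -0.13 to 0.16. Ccnb2, cyclin B2, did not pass the averaged test (-0.17, adjusted p = 0.0911).

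Of the 4 mitotic kinases, Plk1 fell. Plk1, the Polo-like kinase that promotes mitotic entry, centrosome maturation and cytokinesis (gene ID 18817, GRCm38 chr7:122159435-122169884), had 148 and 155 CPM in the combination libraries, 146 and 142 CPM with talazoparib, 191 and 179 CPM with romidepsin and 199 and 196 CPM in control. Every talazoparib-treated library was at or below 155 CPM and every other library at or above 179 CPM, so the groups did not overlap. The averaged comparison gave a log2 fold change of -0.37 (SE 0.057, 95% CI -0.50 to -0.24, adjusted p = 0.00323), the smallest p among the members. Aurkb, the kinase of the chromosomal passenger complex that corrects faulty attachments, had 223 and 220.1 CPM with both drugs, 259.6 and 191 CPM with talazoparib alone, against 260.00 and 308 CPM with romidepsin alone and 293 and 254 CPM in control. Talazoparib library 1 lay as high as the lower romidepsin and control libraries while talazoparib library 2 was the lowest of all, and the averaged comparison, at log2 fold change of -0.32 (SE 0.11, 95% CI -0.57 to -0.069, adjusted p = 0.0577), did not pass. Aurka, the kinase of centrosomes and spindle poles, had 74.0 and 69.0 CPM in the combination libraries, 78.4 and 66.8 CPM with talazoparib, 75.6 and 81.5 CPM with romidepsin and 88.0 and 76.5 CPM in control, with overlapping groups and an averaged 95% CI of -0.34 to 0.026. Melk, a kinase with high expression in proliferating cells, had 67.0 to 73.8 CPM in all libraries.

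Of the 3 checkpoint kinases, Bub1b fell in the averaged comparison. Bub1b, which encodes BubR1, a part of the complex that blocks Cdc20 (gene ID 12236, GRCm38 chr2:118598202-118641592), had 207 and 208 CPM in the combination libraries, 225 and 215 CPM with talazoparib, 239 and 245 CPM with romidepsin and 260.2 and 259 CPM in control. The 4 talazoparib-treated libraries lay below the 4 others, and the averaged comparison gave a log2 fold change of -0.23 (SE 0.054, 95% CI -0.35 to -0.11, adjusted p = 0.0148). It was lost without control 1 (adjusted p = 0.0605) or control 2 (adjusted p = 0.0527), and on both FPKM scales (adjusted p = 0.0643 and 0.0711). Bub1, the kinase that recruits checkpoint proteins to kinetochores, had 224 and 185 CPM with both drugs, 241 and 204 CPM with talazoparib alone, against 238 and 254 CPM with romidepsin alone and 259 and 235 CPM in control. Talazoparib library 1 overlapped romidepsin and control, and the averaged comparison gave -0.21 (95% CI -0.41 to -0.0068, adjusted p = 0.107). Ttk, the kinase Mps1 that starts checkpoint signalling, stayed between 80.6 and 94.3 CPM.

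Cdc20 fell furthest of all members in the averaged comparison, while the other 3 members of the anaphase-promoting complex pathway did not pass the test. Cdc20, the activator that the checkpoint holds back (gene ID 107995, GRCm38 chr4:118432901-118437343), had 192 and 203 CPM in the combination libraries, 223 and 192 CPM with talazoparib, 250.4 and 264 CPM with romidepsin and 279.8 and 271 CPM in control. Its groups did not overlap, and combination 1 and talazoparib 2 were the lowest. The averaged comparison gave a log2 fold change of -0.39 (SE 0.068, 95% CI -0.55 to -0.24, adjusted p = 0.00497). Ube2c, the ubiquitin-conjugating enzyme of that complex, gave 0.13 (95% CI -0.027 to 0.29), Cdca3, a trigger of mitotic entry, -0.091 (95% CI -0.23 to 0.052), and neither passed. Espl1, separase, which cuts cohesin at anaphase, had 212 and 209 CPM with both drugs, 183 and 234 CPM with talazoparib alone, against 229.8 and 206 CPM with romidepsin alone and 202 and 229 CPM in control. Both its lowest and its highest library were talazoparib libraries, and the 95% CI of the averaged effect was -0.26 to 0.16.

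Of the centromere and kinetochore proteins, Cenpf fell. Cenpf, a large protein of the outer kinetochore, had 170.05 and 146 CPM in the combination libraries, 146 and 171 CPM with talazoparib, 204 and 197 CPM with romidepsin and 198 and 216 CPM in control. All talazoparib-treated libraries were at or below 171 CPM and all others at or above 197 CPM, and the averaged comparison gave a log2 fold change of -0.37 (SE 0.081, 95% CI -0.55 to -0.18, adjusted p = 0.0122). This call was kept with any 1 library left out and lost on both FPKM scales (adjusted p = 0.0594 and 0.0558). Cenpa, the histone H3 variant that marks centromeres, had 128 and 126 CPM with both drugs, 131 and 112 CPM with talazoparib alone, against 124 and 118 CPM with romidepsin alone and 119.9 and 113 CPM in control. Libraries with and without talazoparib overlapped, with an averaged 95% CI of -0.10 to 0.22. Cenpe, a kinetochore motor, gave 0.093 (95% CI -0.065 to 0.25). The 2 chromosomal passenger proteins Birc5 (survivin) and Cdca8 (borealin) did not pass, at -0.033 and -0.15 (adjusted p = 0.706 and 0.166).

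The 7 kinesin motors went in both directions: Kif22 and Kif23 fell, Kif15 rose and 4 did not pass. Kif22, a chromosome-arm motor, had 116 and 129 CPM in the combination libraries, 134 and 109 CPM with talazoparib, 147 and 154 CPM with romidepsin and 161 and 148 CPM in control. The groups did not overlap, with talazoparib 2 lowest, and the averaged comparison gave a log2 fold change of -0.32 (SE 0.082, 95% CI -0.51 to -0.13, adjusted p = 0.0223). That call was lost without control 1 (adjusted p = 0.0859), romidepsin 2 (adjusted p = 0.0673) or combination 1 (adjusted p = 0.0771), and on both FPKM scales (adjusted p = 0.0630 and 0.0618). Kif23, the motor of the centralspindlin complex in cytokinesis, had 97.3 and 102 CPM with both drugs, 102 and 97.4 CPM with talazoparib alone, against 116 and 126 CPM with romidepsin alone and 123 and 118 CPM in control. Its groups did not overlap, and the averaged comparison gave a log2 fold change of -0.28 (SE 0.061, 95% CI -0.42 to -0.14, adjusted p = 0.0122). It was lost without control 1 (adjusted p = 0.0554) and on log2(FPKM + 0.1) (adjusted p = 0.0501). Kif15, a spindle motor that can stand in for Kif11 in human cells, had 98.9 and 97.4 CPM in the combination libraries, 103 and 107 CPM with talazoparib, 85.6 and 78.1 CPM with romidepsin and 89.5 and 95.5 CPM in control. All 4 talazoparib-treated libraries lay above all 4 others, with both romidepsin libraries lowest. The averaged comparison gave a log2 fold change of 0.22 (SE 0.062, 95% CI 0.080 to 0.36, adjusted p = 0.0294), lost without control 1 (adjusted p = 0.119), control 2 (adjusted p = 0.0624), romidepsin 2 (adjusted p = 0.0965), talazoparib 2 (adjusted p = 0.0574), combination 1 (adjusted p = 0.0761) or combination 2 (adjusted p = 0.0709). Kif11, the motor that separates spindle poles, had 341 and 301 CPM with both drugs, 350.3 and 339.7 CPM with talazoparib alone, against 338 and 343 CPM with romidepsin alone and 361 and 358 CPM in control. Combination 2 was lowest, libraries with and without talazoparib overlapped, and the averaged 95% CI was -0.21 to 0.067. Kif2c, which takes microtubule ends apart, had all talazoparib-treated libraries below the others but did not pass (-0.19, adjusted p = 0.0557), nor did the chromosome-arm motor Kif4 (-0.23, adjusted p = 0.0622) and the cytokinesis motor Kif20a (0.020, adjusted p = 0.808).

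Of the 5 spindle and cytokinesis proteins, Tpx2 and Nusap1 fell. Tpx2, the spindle assembly factor that activates Aurora A, had 274 and 261 CPM in the combination libraries, 285 and 239.7 CPM with talazoparib, 318 and 339 CPM with romidepsin and 334 and 319 CPM in control. The 4 talazoparib-treated libraries were the 4 lowest, and the averaged comparison gave a log2 fold change of -0.31 (SE 0.071, 95% CI -0.47 to -0.14, adjusted p = 0.0150). The call was lost without control 1 (adjusted p = 0.0630), romidepsin 2 (adjusted p = 0.0542) or combination 2 (adjusted p = 0.0583). Nusap1, a microtubule-bundling protein, had 179.9 and 153 CPM with both drugs, 182 and 174 CPM with talazoparib alone, against 187 and 214 CPM with romidepsin alone and 221 and 198 CPM in control. Its groups did not overlap, but talazoparib 1 and romidepsin 1 lay close together. The averaged comparison gave a log2 fold change of -0.25 (SE 0.080, 95% CI -0.43 to -0.066, adjusted p = 0.0473), the largest adjusted p among the called members. It was lost without control 1 (adjusted p = 0.164), control 2 (adjusted p = 0.0670), romidepsin 1 (adjusted p = 0.0503), romidepsin 2 (adjusted p = 0.141), talazoparib 1 (adjusted p = 0.0546), talazoparib 2 (adjusted p = 0.0901) or combination 2 (adjusted p = 0.146), with upper-quartile scaling (adjusted p = 0.0851), with the replicate block (adjusted p = 0.0627) and on both FPKM scales (adjusted p = 0.167 and 0.167). Anln, anillin, the scaffold of the contractile ring, had 142 and 112 CPM in the combination libraries, 145 and 119 CPM with talazoparib, 132 and 160.1 CPM with romidepsin and 135 and 123 CPM in control. Romidepsin 2 was the highest and combination 2 the lowest library, and the averaged 95% CI was -0.33 to 0.17. Prc1, which bundles the central spindle, did not pass (-0.21, adjusted p = 0.0938) although its talazoparib-treated libraries lay below all others. Aspm, a spindle pole protein, did not pass (-0.31, adjusted p = 0.0629), with overlapping groups.

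Of the 3 mitotic chromosome proteins, Ncapg and Mki67 fell and Top2a did not pass. Ncapg, a subunit of condensin I (gene ID 54392, GRCm38 chr5:45669891-45700547), had 132 and 125 CPM in the combination libraries, 138 and 131 CPM with talazoparib, 165 and 157 CPM with romidepsin and 172 and 163 CPM in control. All talazoparib-treated libraries lay below all others. The averaged comparison gave a log2 fold change of -0.32 (SE 0.060, 95% CI -0.46 to -0.18, adjusted p = 0.00633). Mki67, the Ki-67 protein that coats mitotic chromosomes and serves as a proliferation marker, had 983 and 890.5 CPM with both drugs, 882 and 1085 CPM with talazoparib alone, against 1289 and 1158 CPM with romidepsin alone and 1179 and 1206 CPM in control. The groups did not overlap, and talazoparib 2 came nearest to the libraries without the drug. Its averaged comparison gave a log2 fold change of -0.33 (SE 0.081, 95% CI -0.52 to -0.14, adjusted p = 0.0181), lost without control 1 (adjusted p = 0.0528), control 2 (adjusted p = 0.0565), romidepsin 1 (adjusted p = 0.0604) or combination 2 (adjusted p = 0.0719) and on both FPKM scales (adjusted p = 0.0710 and 0.0687). Top2a, topoisomerase II alpha, which untangles sister chromosomes, had 1463 and 1358 CPM in the combination libraries, 1415 and 1383 CPM with talazoparib, 1481 and 1497 CPM with romidepsin and 1459.6 and 1411 CPM in control. Its groups overlapped, and the 95% CI of the averaged log2 fold change was -0.18 to 0.066.

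**Figure D4:**
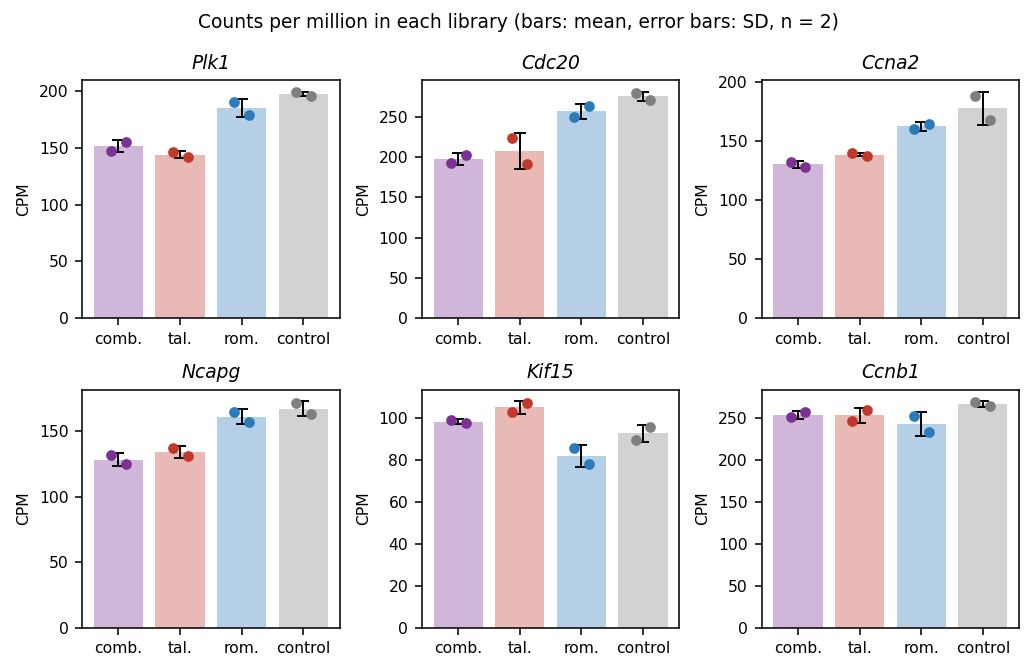
CPM in each library for 6 mitosis genes in combination (comb.), talazoparib (tal.), romidepsin (rom.) and control cells; bars are group means, error bars SD, n = 2. Plk1, Cdc20, Ccna2 and Ncapg are lower, and Kif15 higher, in all talazoparib-treated libraries, and the groups of Ccnb1 overlap.

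Set against control alone, fewer members passed. With talazoparib alone over control, 4 of 36 members (11.1%) fell, Ccna2, Plk1, Cdc20 and Ncapg, where 4.64% of all tested genes fell, and 0 rose (6.43% of all tested genes); 11 members had an unadjusted p under 0.05 with a negative sign and 0 with a positive sign. Plk1 had a log2 fold change of -0.46 (SE 0.081, 95% CI -0.64 to -0.27, adjusted p = 0.0147), Cdc20 -0.41 (adjusted p = 0.0340), Ccna2 -0.36 (adjusted p = 0.0370) and Ncapg -0.32 (adjusted p = 0.0491). The median over the members was -0.18, and -0.078 without talazoparib 2 or -0.26 without talazoparib 1. The calls of Ccna2 and Ncapg were lost whichever library was left out, and that of Cdc20 with any left out but talazoparib 1. Plk1 was lost without control 1 or control 2. The number of calls over all genes moved in these fits as well.

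With the combination over control, 6 of 36 (16.7%) fell, where 7.28% of all tested genes fell, and 0 rose (10.2% of all tested genes). They were Cdc20 at -0.48 (adjusted p = 0.0159), Ccna2 at -0.45 (0.0142), Cdc25c at -0.39 (0.0325), Plk1 at -0.38 (0.0185), Ncapg at -0.38 (0.0211) and Bub1b at -0.32 (0.0253), and Cenpf, at -0.39, came next without passing. All 6 calls were lost without control 1, combination 1 or combination 2, and all but that of Ccna2 without control 2. Cdc25c was also lost without romidepsin 1 or romidepsin 2. The number of calls over all genes moved in these fits as well. With the combination over romidepsin, Cdc20 fell with a log2 fold change of -0.38 (SE 0.10, 95% CI -0.60 to -0.16, adjusted p = 0.0420) and Ncapg with a log2 fold change of -0.33 (SE 0.084, 95% CI -0.52 to -0.13, adjusted p = 0.0440), and 0 members rose (7.01% of all tested genes). These 2 of 36 (5.56%) stand near the 4.7% of all tested genes that fell. Both calls were lost without either control, romidepsin or combination library. DESeq2 called 0 members upward in these 3 comparisons, and limma on FPKM called 1, Kif15, upward in the combination over romidepsin. In the combination over control 15 members had an unadjusted p under 0.05 with a negative sign and 0 with a positive sign, and over romidepsin 15 and 1. The comparisons with control share the control libraries, and those of the combination share its libraries.

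Talazoparib over control and combination over romidepsin share no library, only the scaling and the estimate of spread. In these, 31 of 36 members (86.1%) had the same sign, 25 negative and 6 positive in both, beside 80.6% of all tested genes. Across the 36 members, which are not independent of each other, Pearson's r between the 2 sets of log2 fold changes was 0.85 and Spearman's rho 0.85, beside a Pearson's r of 0.76 over all 11934 tested genes. Values for Cdc20 were -0.38 with romidepsin present and -0.41 without it. For Plk1 they were -0.29 and -0.46, for Mki67 -0.38 and -0.28, and for Kif15 0.26 and 0.18.

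**Figure D5:**
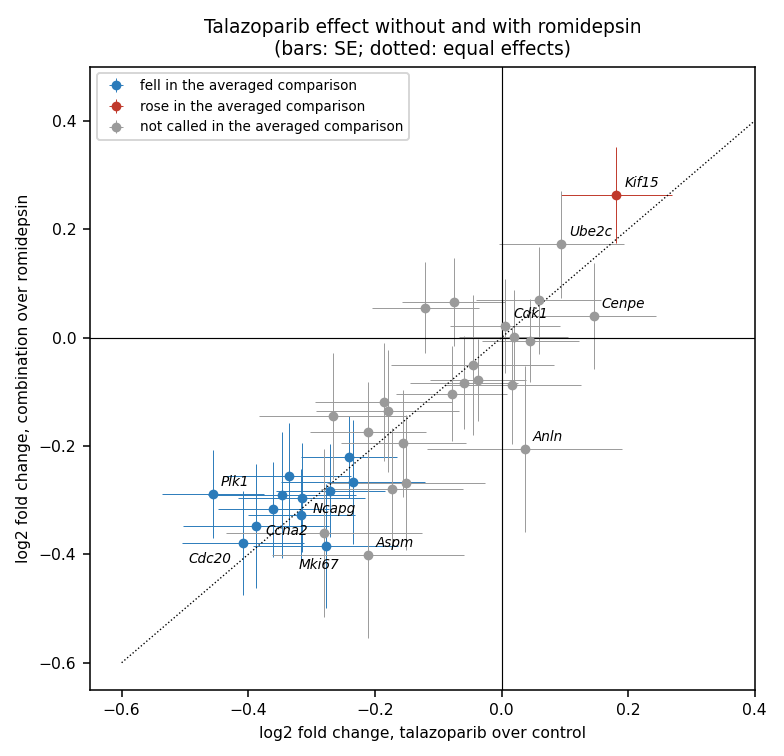
Log2 fold change of the combination over romidepsin (y axis) against talazoparib over control (x axis) for the 36 mitosis genes; bars are standard errors, the dotted line marks equal effects, and colours give the call in the averaged comparison. In 25 genes both values are negative, and 6 have both positive.

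Romidepsin moved no member past the threshold, alone or added to talazoparib. Over control, 0 of 36 fell and 0 rose (0.0168% and 0.00838% of all tested genes, 3 genes in all), 0 had an unadjusted p under 0.05 and the smallest adjusted p was 0.940. DESeq2 called 0 members and 8 genes in the same comparison. The members' log2 fold changes lay between -0.18 (Kif15) and 0.18 (Anln), and their 95% CIs between -0.38 and 0.53. For the combination over talazoparib the range was -0.17 to 0.073 with a median of -0.034; 0 members fell and 0 rose (0.0168% and 0.00838% of all tested genes), and 0 had an unadjusted p under 0.05. The interaction, which tests whether romidepsin changed the talazoparib effect, called 0 members in either direction (0.0168% and 0% of all tested genes), with 0 members at an unadjusted p under 0.05. Its estimates ran from -0.24 to 0.18 with standard errors of 0.11 to 0.22. Averaged over both talazoparib arms, romidepsin gave 0 calls in either direction (0.0168% and 0.00838% of all tested genes), 0 members at an unadjusted p under 0.05 and a member median of -0.036. DESeq2 also called 0 members in each of these 3 comparisons.

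Per length of transcript, the members spanned a wide range of levels. In FPKM as the authors deposited them, averaged over all 8 libraries, Top2a was highest at 270.3 ± 7.78 FPKM, followed by Cdca3 at 164 ± 4.94, Ube2c at 139 ± 13.7, Cdc20 at 129 ± 15.5, Cdk1 at 127 ± 6.80 and Aurkb at 125 ± 15.8 FPKM (SD, n = 8 libraries over all groups). Aspm was lowest at 11.5 ± 1.5, below Cenpf at 15.97 ± 1.92, Kif15 at 19.3 ± 2.55 and Cdc25c at 21.1 ± 1.90 FPKM. Top2a stood apart, since its lowest library (260.9 FPKM) lay above the highest of Cdca3 (169 FPKM), whereas the lowest library of Cdca3 (156 FPKM) lay below the highest of Ube2c (159.5 FPKM). Ube2c, Cdc20, Cdk1 and Aurkb did not differ beyond their spread, which includes the drug effects.

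Gaps between replicate libraries went with transcript length in the combination, talazoparib and control pairs. The median absolute log2 gap between the 2 libraries of a group, over the members, was 0.077 in the combination, 0.17 in talazoparib, 0.082 in romidepsin and 0.091 in control, and the widest was that of Aurkb with talazoparib, at 0.45. Across the 36 members, Spearman's rho of the gap (replicate 2 minus replicate 1) with transcript length was -0.64 in the combination, 0.59 in talazoparib, -0.26 in romidepsin and 0.56 in control, beside -0.27, 0.20, -0.041 and 0.23 over 11597 genes with a length. For the averaged talazoparib effect it was -0.039 over the members. The sign of rho follows from which library of a pair is numbered 1, so signs are not compared between groups. The part of these gaps in the averaged comparison was not tested.

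Other genes of the pathway were taken from lists by role, with the averaged comparison throughout, in which 13.7% of all tested genes fell and 16.5% rose. Of 9 condensin and chromosome compaction genes tested, 4 (44.4%) fell and 0 rose, with a median of -0.23, and 3 fell on log2(FPKM + 1). Ncapd2, the condensin I subunit D2, had 365 and 353 CPM in the combination libraries, 366 and 362 CPM with talazoparib, 509 and 562 CPM with romidepsin and 525 and 495 CPM in control, with no overlap and a log2 fold change of -0.53 (SE 0.059, 95% CI -0.67 to -0.40, adjusted p = 0.000905). Smc4, a core condensin ATPase, changed by -0.39 and Hmgb2, a DNA-bending chromatin protein, by -0.63, and all 3 kept their call in all 16 alternatives. Of 18 regulators of Cdk1 and mitotic entry, 6 (33.3%) fell and 2 (11.1%) rose under TMM scaling. On log2(FPKM + 1) 2 fell and 4 rose, where 883 of 12260 genes fell and 2671 rose. No direction is given for that list from these counts. Relative to the median of all genes, its median was -0.13 under TMM scaling and -0.098 on log2(FPKM + 1). Gtse1, a G2 and S phase protein that restrains p53, rose by 1.03, the largest change in that list, with 179 and 200.3 CPM with both drugs, 215 and 199 CPM with talazoparib alone, against 83.2 and 102 CPM with romidepsin alone and 103 and 99.4 CPM in control. Mastl, the Greatwall kinase, rose by 0.29, and the centrosome kinases Nek2 (-0.35) and Plk4 (-0.31) and the mitotic kinase Pbk (-0.29) fell, while Wee1 (-0.11), Cdc25b (-0.18) and Ccnf (0.11) did not pass. Gtse1 and Nek2 were called in all 16 alternatives, and the call was lost for Mastl in 6 (without control 2, romidepsin 1, romidepsin 2, talazoparib 1, combination 1 or combination 2; largest adjusted p = 0.111), Plk4 in 5 (without control 1, romidepsin 2 or combination 2, and on both FPKM scales; largest adjusted p = 0.0676) and Pbk in 2 (without control 1 or combination 1; largest adjusted p = 0.0761). Of 37 other spindle, centrosome and cytokinesis genes, 10 (27.0%) fell and 4 (10.8%) rose under TMM scaling, beside 13.7% and 16.5% of all tested genes, and 5 fell and 5 rose on log2(FPKM + 1). The smallest p-values among those that fell were those of Lmnb1, the nuclear lamina protein lamin B1 (-0.44), Racgap1, the partner of Kif23 in centralspindlin (-0.44), and Depdc1b (-0.44), and among those that rose those of the minus-end kinesin Kifc1 (0.45), Fam83d (0.38) and the centriole protein Cenpj (0.33). Of these 6 the call was lost for Cenpj in 1 (without control 1; largest adjusted p = 0.0565) and for no other gene.

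Of 45 kinetochore and checkpoint genes, 8 (17.8%) fell and 7 (15.6%) rose under TMM scaling, shares near the 13.7% and 16.5% of all tested genes. On log2(FPKM + 1) 1 fell and 13 rose, where 883 of 12260 genes fell and 2671 rose. No direction is given for that list from these counts. Relative to the median of all genes, its median was -0.029 under TMM scaling and -0.0049 on log2(FPKM + 1). Pmf1 (-0.52), Ska1 (-0.32) and Spc24 (-0.34) fell, and Cenph (0.50), Spc25 (0.33) and Kntc1 (0.34) rose under TMM scaling. The call was kept in all 16 alternatives for Pmf1, Cenph and Spc25, and lost for Ska1 in 6 (without control 1, control 2, romidepsin 1 or combination 2, and on both FPKM scales; largest adjusted p = 0.0727), Spc24 in 6 (without control 1, romidepsin 2, combination 1 or combination 2, and on both FPKM scales; largest adjusted p = 0.0906) and Kntc1 in 3 (without control 1, romidepsin 2 or combination 1; largest adjusted p = 0.0758). Of 19 genes of the anaphase-promoting complex and cohesion release, 6 (31.6%) fell and 1 (5.26%) rose, beside 13.7% and 16.5% of all tested genes, and 4 and 1 on log2(FPKM + 1). Ube2s (-0.38), which extends ubiquitin chains, Fbxo5 (-0.38), the inhibitor Emi1, and the subunit Cdc26 (-0.39) fell, the subunit Anapc13 (0.28) rose, and Fzr1 (-0.26), the second activator Cdh1, did not pass (adjusted p = 0.0710). Ube2s was called in all 16 alternatives, and the call was lost for Fbxo5 in 1 (without control 1; largest adjusted p = 0.0512), Cdc26 in 1 (without control 1; largest adjusted p = 0.0592) and Anapc13 in 8 (without control 1, control 2, romidepsin 1, romidepsin 2, talazoparib 1, combination 1 or combination 2, and with replicate block; largest adjusted p = 0.135).

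Of 17 DREAM, MuvB, B-Myb and FoxM1 genes, which regulate CHR promoters, 3 (17.6%) fell, near the 13.7% of all tested genes, and 1 (5.88%) rose, beside 16.5%; on log2(FPKM + 1) the counts were 2 and 1. Rbl1, which encodes the DREAM pocket protein p107, had 73.3 and 67.3 CPM in the combination libraries, 76.3 and 63.5 CPM with talazoparib, 112 and 113 CPM with romidepsin and 104 and 108 CPM in control, without overlap, with a log2 fold change of -0.64 (SE 0.075, 95% CI -0.81 to -0.47, adjusted p = 0.00109). Nfya, a subunit of NF-Y, had 59.7 and 58.7 CPM with both drugs, 61.4 and 52.3 CPM with talazoparib alone, against 86.2 and 95.7 CPM with romidepsin alone and 82.6 and 82.1 CPM in control, again without overlap, with a log2 fold change of -0.58 (SE 0.072, 95% CI -0.74 to -0.41, adjusted p = 0.00144). Both calls were kept in all 16 alternatives. Rbbp4, a MuvB subunit, fell by 0.22, and Mybl2, B-Myb, rose by 0.25 (adjusted p = 0.0197). Rbbp4 lost its call in 6 of the 16 alternatives (without control 1, control 2, romidepsin 1 or combination 2, and on both FPKM scales; largest adjusted p = 0.110), and Mybl2 in 4 (without control 1, control 2, romidepsin 1 or combination 2; largest adjusted p = 0.0769). Foxm1 (0.024), Lin9 (-0.032), E2f4 (-0.17) and Rbl2, the pocket protein p130 (0.076), did not pass (adjusted p = 0.135 to 0.807).

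Most p53 and p21 genes rose. Of 12 tested, 8 (66.7%) rose and 1 (8.33%) fell, beside 16.5% and 13.7% of all tested genes, with a median of 0.79, and 8 and 0 on log2(FPKM + 1). The gene that fell was Cdkn1b, the Cdk inhibitor p27, at -0.48, and among the 16 alternatives the call was lost for Cdkn1b in 9 (without control 1, control 2, romidepsin 2, talazoparib 2, combination 1 or combination 2, and on both FPKM scales and with upper quartile scaling; largest adjusted p = 0.131). Cdkn1a, which encodes p21, had 146 and 148 CPM in the combination libraries, 138 and 114 CPM with talazoparib, 19.0 and 23.1 CPM with romidepsin and 19.3 and 17.7 CPM in control. Every talazoparib-treated library was at or above 114 CPM and every other library at or below 23.1 CPM, and the averaged comparison gave a log2 fold change of 2.78 (SE 0.10, adjusted p = 7.15e-06). Ccng1, cyclin G1, rose by 1.57 and Zmat3, an RNA-binding p53 target, by 1.15, both called in all 16 alternatives. Trp53 itself was at -0.025 and did not pass (adjusted p = 0.865).

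The authors' deposited table, which holds adjusted p-values of their own test for 6 comparisons, called fewer members. For the combination over control, the authors' deposited table has 4 of 36 members down (Cdc20, Ccna2, Ncapg and Plk1), beside 1991 of 12260 genes called in either direction. For talazoparib over control the authors' deposited table has Plk1 alone down, 1 of 36, beside 1416 of 12260 genes called. In both, 0 members rose, and the share of members called in either direction was below that of all genes. Falls over all genes were not counted apart in the authors' calls. These shares are therefore not like the shares of fallen genes given above. It has 0 members in the other 4 comparisons, with 1536 genes called for the combination over romidepsin and 1268 for romidepsin over talazoparib. Among these 4 the smallest adjusted p of a member in the authors' deposited table was 0.0757, for the combination over romidepsin.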

How the data were processed

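RNA from MBL2 cells was made into stranded mRNA libraries, per the labels' protocols, and 2 libraries of each of 4 groups entered the analysis. The submitters' processing notes name HISAT2, StringTie and the build mm10; their versions, settings and any use of strand in counting were not given in the sources. The deposited table holds raw read counts per gene, per the file headers. It also holds FPKM values that the authors computed, log2 values normalised by the authors, their linear signed fold changes and their adjusted p-values of 6 comparisons, per the file headers; the authors' test is not named. Log2 values of the authors were not used, and their fold changes gave only the direction of a call. Their adjusted p-values were counted against the threshold, and the smallest was quoted.

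After filterByExpr, 11934 genes were kept, scaled by TMM (factors 0.954 to 1.04) and fitted with edgeR 4.0.16 (R 4.3.3) with 1 term per group over all 8 libraries, 4 residual degrees of freedom and a biological coefficient of variation of 12.9%. A call needed an adjusted p (Benjamini-Hochberg, all tested genes) under 0.05. The fold change is the first-named group over the second. The code was tested on simulated data. Alternatives were other scalings, DESeq2 1.42.0, no filter, robust variance, only the groups compared, limma 3.58.1 on log2(FPKM + 1) and log2(FPKM + 0.1), a replicate block, an adjusted p under 0.1 and each library left out; 1 more was chosen after seeing the data. Per-library values were given for members called anywhere and for anchors named by role; of each other list, up to 3 called genes per direction with the smallest p, plus 11 named regulators. Gene IDs (12237 matched), coordinates and promoters came from RefSeq (GRCm38.p6). The members, lists and anchors were chosen with earlier results of these data known. Counts of libraries, not read depth alone, limit precision.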

Additional observations from a re-analysis of the deposited data

How the results depend on the processing

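No called member changed sign in the settings run, and the number called changed. For talazoparib over control, where 4 members fell, 1 fell with upper-quartile scaling, 0 when only the groups compared were fitted, 1 on each FPKM scale and 10 at an adjusted p under 0.1; genes called were 296 in the fit of the groups compared and 2363 at the looser threshold, beside 1321, and the members' median was -0.082 and -0.085 on log2(FPKM + 1) and log2(FPKM + 0.1). For the combination over control, where 6 fell, 11 fell in the fit of the groups compared, 12 at an adjusted p under 0.1 (3256 genes) and 10 without both talazoparib libraries (an alternative chosen after seeing the data, since they hold the most Rn45s reads), and the median was -0.11 on both FPKM scales. In that comparison Cdc25c and Bub1b lost their calls with upper-quartile scaling (adjusted p = 0.0614 and 0.0532). With limma both were also lost on log2(FPKM + 1) (adjusted p = 0.0760 and 0.0549) and log2(FPKM + 0.1) (adjusted p = 0.0764 and 0.0600). For the combination over romidepsin, where 2 fell, 0 fell with upper-quartile scaling, 5 with DESeq2, 0 with 1 risen on each FPKM scale, 9 with 1 risen at an adjusted p under 0.1 (2498 genes) and 5 without both talazoparib libraries, and the medians were -0.077 and -0.078 on the FPKM scales. In the averaged comparison, 6 and 5 fell and 2 rose on the FPKM scales, with medians of -0.084 and -0.085. The median of all genes moved up by 0.07 to 0.10 on those scales, and the share of calls that rose from 58.1%, 58.4% and 59.8% to 76.9%, 79.6% and 82.7% on log2(FPKM + 1) and to 68.4%, 71.5% and 72.3% with upper-quartile scaling, for talazoparib over control, combination over control and combination over romidepsin. Relative to the median of all genes the members' median stayed between -0.15 and -0.22 in these comparisons and scalings. The cause of these differences was not tested.

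The comparisons of romidepsin called few genes in any setting. Romidepsin over control called 3 genes, and 8 with DESeq2, 1 on each FPKM scale and 0 with the block; the combination over talazoparib 3, and 25 with DESeq2, 5 with robust variance and 5 at an adjusted p under 0.1; the interaction 2, and 7 with DESeq2 and 1 with the block; romidepsin averaged 3, and 81 with DESeq2, 1 on log2(FPKM + 1) and 0 with the block. None of the 36 members was among the calls of the main fit.

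The labels do not say if libraries of the same replicate number are paired. The correlation of replicate gaps between groups ran from -0.33 to 0.29, and with no known paired libraries to compare, these values cannot decide it. With a replicate block, 1 member fell for talazoparib over control (860 genes called), 5 for the combination over control, 0 for the combination over romidepsin, and 11 fell and 1 rose in the averaged comparison.

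With 1 library left out in turn, members fallen ranged from 0 to 6 for talazoparib over control (143 to 1516 genes called, median -0.26 to -0.078), 0 to 10 for the combination over control (305 to 2700 genes, median -0.30 to -0.17), 0 to 5 for the combination over romidepsin (156 to 1990 genes) and 5 to 18 in the averaged comparison (0 to 1 risen, 1943 to 4043 genes). Genes called ranged from 0 to 10 for romidepsin over control, 0 to 9 for the combination over talazoparib, 1 to 8 for the interaction and 0 to 7 for romidepsin averaged. Each member had at least 1098 reads in every library, and the 2 libraries per group limit the precision; the smallest fall called in the averaged comparison was 14.8%.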

Other observations

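In the averaged talazoparib comparison, of 45 DNA replication genes of S phase, 10 (22.2%) fell and 1 (2.22%) rose (13.7% and 16.5% of all tested genes), with a median of -0.067. Pold2, a subunit of DNA polymerase delta, had 79.6 and 87.5 CPM in the combination libraries, 88.8 and 85.4 CPM with talazoparib, 133 and 134 CPM with romidepsin and 139 and 137 CPM in control, without overlap, and a log2 fold change of -0.67 (SE 0.060, 95% CI -0.81 to -0.53, adjusted p = 0.000391). Lig1, the ligase that joins Okazaki fragments, changed by -0.34 and Mcm6, a subunit of the replicative helicase, by -0.26, and all 3 were called in all 16 alternatives. Mcm10, an initiation factor, rose by 0.30, and the call was lost for Mcm10 in 3 (without control 1, romidepsin 2 or combination 2; largest adjusted p = 0.0724). On log2(FPKM + 1) the same list had 5 fallen and 7 risen, where 883 of 12260 genes fell and 2671 rose. The counts in each direction thus rest on the scaling. Relative to the median of all genes, the list's median was -0.067 in the main fit and -0.039 on log2(FPKM + 1).

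Of 14 Rb and E2F genes of G1 and S, 3 (21.4%) rose, near the 16.5% of all tested genes, and 0 fell (13.7% of all tested genes). E2f2, an activating E2F, had 102 and 111 CPM with both drugs, 85.2 and 118 CPM with talazoparib alone, against 63.3 and 64.9 CPM with romidepsin alone and 61.1 and 69.5 CPM in control, and the averaged comparison gave a log2 fold change of 0.69 (SE 0.11, 95% CI 0.44 to 0.93, adjusted p = 0.00326). Ccnd3, cyclin D3, rose by 0.43, called in all 16 alternatives, and E2f3 rose by 0.49, and the call was lost for E2f3 in 4 (without control 1, romidepsin 2, combination 1 or combination 2; largest adjusted p = 0.0834).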
